A study of Mus musculus with 4 samples.

Results

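The Pax, Sox, Fox, Tbx, Lhx and Nkx genes encode transcription factors that direct the formation of tissues in the embryo. Protein-coding genes of these 6 families on the mouse autosomes were taken by symbol, without Sox2 and Sox9, and family genes with other symbols were not taken. Each gene taken was read over the gene and 5 kb on either side. This gave 100 of 20661 autosomal protein-coding genes: 9 Pax, 16 Sox, 41 Fox, 12 Tbx, 8 Lhx and 14 Nkx genes, called members here. Coordinates are in mm10. They covered 5280 of the 1562249 measured 1-kb windows of the autosomes. A window was measured when 3 or more of its CpGs had a value in every sample, and 85.1% of the 6205 windows laid over these genes were.

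DNA methylation had been profiled by whole-genome bisulfite sequencing of male germ cells from 21-day-old mouse testes. There were 2 control samples, Np95fl/fl, in which both copies of Np95 carry recombination sites but remain intact, and 2 knockout samples, Np95fl/fl:Stra8-Cre, which add a recombinase driven by the Stra8 promoter in premeiotic male germ cells. All 4 samples therefore carried the floxed allele. Np95, also named Uhrf1, brings the methyltransferase Dnmt1 to newly copied DNA, so that methylation is passed to the daughter strands. The study asked how far DNA methylation is lost in its absence. Whether the samples of a group are separate mice is not stated in the labels, so the p-values cover only the spread seen among the 4 samples, which may be technical.

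Pax proteins bind DNA through a paired domain, Sox proteins through an HMG box, Fox proteins through a forkhead domain, Tbx proteins through a T-box, and Lhx and Nkx proteins through a homeodomain. In many cell types such genes lie in wide stretches of CpG-rich DNA with little methylation, often called methylation valleys, that are also known as targets of Polycomb repression. Histone marks and transcripts were not measured here.

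The autosomal cytosines with a value numbered between 28863300 and 29616095 per sample, and 60.8% of those listed had a value in all 4. The read depth behind each value is unknown. At 10 germline genes known to be methylated in somatic tissue, the starts averaged 10.05% in control 1, 10.03% in control 2, 18.1% in knockout 1 and 14.1% in knockout 2, and both knockouts were above both controls at 8 of the 10. At 7 imprinted genes methylated on the maternal copy, the starts averaged 16.4% and 16.8% in controls, against 13.9% and 11.9% in knockouts. That fall came from Snrpn (51.5% in controls, 26.0% in knockouts) and Grb10 (40.9% and 22.5%). Low in controls and higher in knockouts were Mest (4.79% and 11.3%), Nnat (3.96% and 10.8%), Plagl1 (4.01% and 6.53%), Zrsr1 (5.41% and 7.29%) and Peg3 (5.53% and 5.93%). Both knockouts were above both controls at 4 of the 7. Only 2 Sertoli genes (Cldn11 and Sox8, itself a member), 2 Leydig genes and 1 blood gene (Ptprc) could be read at their starts. The means were 2.43%, 50.8% and 90.9% in controls, against 2.44%, 26.2% and 37.2% in knockouts. The Leydig mean joins 2 unlike genes, Hsd3b1 (94.3% in controls, 48.8% in knockouts) and Insl3 (7.30% and 3.64%). Methylation levels do not count cells, and the part of other cell types in the results below was not tested.

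Across the member windows, mean methylation was 71.2% in control 1, 75.7% in control 2, 38.0% in knockout 1 and 38.7% in knockout 2. Both knockouts lay far below both controls, and the control samples differed from each other by more than the knockout samples did. The mean fell from 73.5% ± 3.20 to 38.3% ± 0.474 (SD, n = 2 each), so the knockouts retained 52.2% of the control level. Over all autosomal windows the same means were 78.9%, 83.3%, 43.0% and 43.5%, with 53.3% retained.

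A window, gene or start was called when limma gave a Benjamini-Hochberg adjusted p under 0.05 over all features of its kind and the group means differed by at least 10 percentage points. Of the 5280 member windows, 4501 (85.2%) were lower in the knockouts, against 93.4% of all windows, and 0 were higher, against 0.136%. At an unadjusted p under 0.05, 4658 member windows differed in either direction, a count that was not made over all windows. After subtraction of each sample's median, which removes the median shift of -3.11 on the log2 odds scale, calls were made without the 10-point limit. Their direction is relative to that shift, so higher does not mean a gain in percent. In this setting 26 member windows (0.492%) were lower and 1009 (19.1%) higher, against 0.588% and 12.6% of all windows. Using only each window's own spread, 2780 (52.7%) were lower, against 55.1%.

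At the level of whole genes with their flanks, 91 of the 100 members fell, against 99.5% of the 19209 genes tested, and 0 of either set rose. Both knockouts lay below both controls at 99 of the 100, and at 19203 of the 19209. At an unadjusted p under 0.05 in limma, 99 members differed in either direction, a count that was not made over all genes. Centred on the sample medians, a median shift of -2.27 on the log2 odds scale, 11 members were lower and 72 higher, against 32.1% and 40.1% of all genes. These calls had no 10-point limit and are relative to that shift, so higher need not be a gain or a larger share kept. Foxf1 was called higher there, yet its knockouts kept 40.2% of the control level, against a median of 54.5% over all genes. Averaged over cytosines in place of windows, 56 members were lower, against 94.6% of all genes. The median member went from 57.9% in the controls to 29.7% in the knockouts, and the median of the members' differences was -27.7 points. For all genes the medians were 79.2%, 42.6% and -35.5 points.

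The 9 members that were not called started from low levels. They included Foxd3, Sox21, Foxa1, Nkx2-3, Sox14, Nkx6-1, Foxb2 and Foxc1, and Foxc1 had the highest control level of them at 22.1%. In 8 of the 9 the adjusted p passed in limma and the difference stayed under 10 points. In Foxd3, the exception, the difference was -0.0512 points. Calls close to the 10-point limit depended on single samples: Foxb2 was called without control 1 or without knockout 2, Foxd2 was lost without control 2 or without knockout 2, and Sox1 was lost without control 2.

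**Figure D1:**
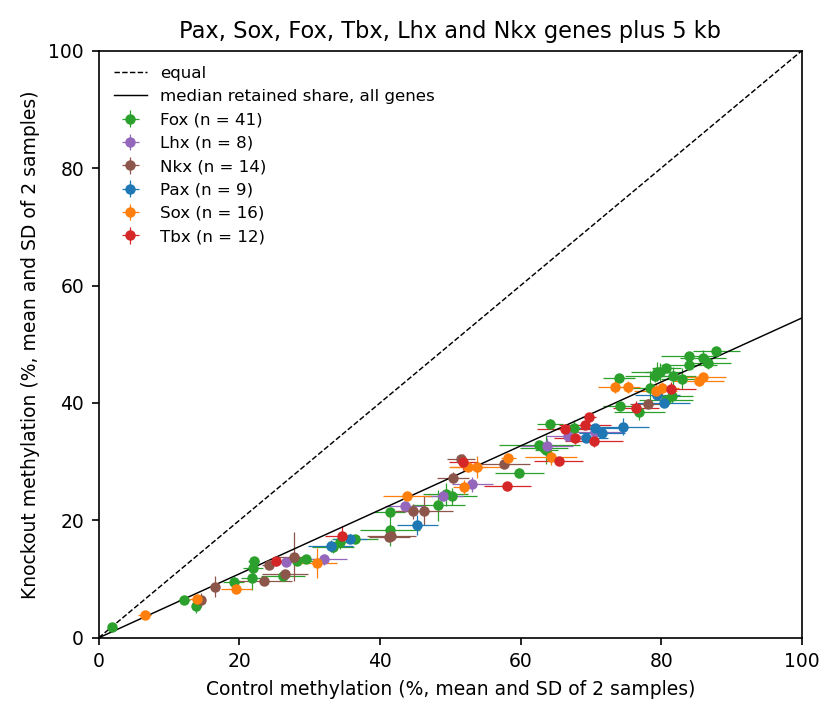
Mean methylation of each member gene with 5 kb on either side in the controls (x axis, %) and the knockouts (y axis, %), with SD of 2 samples as bars, coloured by family. The dashed line marks equal levels and the solid line the median share retained over all genes, and most of the 100 points lie on or under the solid line.

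The families started from different levels. The median control level was 70.6% for Pax, 67.1% for Tbx, 63.4% for Fox, 56.1% for Sox, 51.1% for Lhx and 41.5% for Nkx genes. All 9 Pax, 12 Tbx and 8 Lhx genes fell, as did 36 of 41 Fox, 14 of 16 Sox and 12 of 14 Nkx genes. Over all genes tested the share was 99.5%. The order of the families was not tested, and within each family the genes ranged widely.

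Foxp1 and Foxd3 bounded the Fox family. Foxp1 (chr6:98925342-99522746), a broadly expressed repressor, had 85.5% and 90.2% in controls, against 48.7% and 49.1% in knockouts. Foxd3 (chr4:99656299-99658671), which maintains neural crest and pluripotent cells, had 1.52% and 2.21% in controls, against 1.65% and 1.98% in knockouts. The Foxp1 groups were far apart, and those of Foxd3 overlapped. Foxp1 fell by 39 points (adjusted p = 2.39e-15, limma), and the adjusted p of Foxd3 in limma was 0.918.

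In the Sox family the corresponding genes were Sox6 and Sox21. Sox6 (chr7:115470872-116040776), a partner of Sox9 in cartilage, had 83.7% and 88.2% in controls, against 43.9% and 44.9% in knockouts. Sox21 (chr14:118233233-118237030), a regulator of neural and hair follicle cells, had 5.91% and 7.19% against 4.03% and 3.88%. Both genes had knockouts below controls, but the fall of 41.6 points in Sox6 (adjusted p = 3.80e-20, limma) was called and the difference of -2.60 points in Sox21 was not.

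Among Pax genes, Pax5 was highest and Pax9 lowest. Pax5 (chr4:44524748-44710694), which commits lymphoid progenitors to the B cell lineage, had 77.7% and 83.0% in controls, against 40.1% and 39.9% in knockouts. Pax9 (chr12:56691693-56712824), needed for teeth and pharyngeal pouches, had 30.7% and 35.2% against 16.3% and 14.9%. Neither gene's groups overlapped. Pax5 fell by 40.3 points and Pax9 by 17.4 points (adjusted p = 2.18e-25 and 3.42e-18, limma).

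Tbx19, a pituitary factor, and Tbx2, a repressor in heart and limb, bounded the T-box genes. Tbx19 (chr1:165137834-165160773) had 78.9% and 83.9% in controls, against 43.2% and 41.5% in knockouts. Tbx2 (chr11:85832615-85841948) had 24.1% and 26.4% against 12.5% and 13.6%. The groups of both were apart, and they fell by 39 and 12.2 points (adjusted p = 3.55e-22 and 1.49e-12, limma).

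Lhx4, which acts in the pituitary and motor neurons, and Lhx5, a forebrain gene, bounded the Lhx family. Lhx4 (chr1:155698031-155751726) had 67.6% and 73.5% in controls, against 35% and 35.2% in knockouts. Lhx5 (chr5:120431886-120441457) had 25.6% and 27.7% against 12.8% and 13.2%. They fell by 35.4 and 13.7 points without overlap (adjusted p = 3.06e-27 and 7.33e-15, limma).

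Nkx2-3 (chr19:43612325-43615892), which acts in spleen and gut vessels, had the lowest level of the Nkx family, at 14.6% and 14.5% in controls, against 5.54% and 7.22% in knockouts. Both knockouts were below both controls there, with a difference of -8.19 points that missed the 10-point limit. Members with more CpGs had less methylation: over the 100 members, Spearman's rho between CpGs per window and control level was -0.868, against -0.555 over 19209 genes. The genes share the same 4 samples and these values have no test.

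Wide stretches of low methylation were a feature of the members. Under 20% in the controls were 13.9% of member windows, against 4.41% of all windows. By family the share was 48.8% for Nkx, 29.8% for Lhx, 21.5% for Tbx, 15.5% for Pax, 11.3% for Fox and 6.87% for Sox windows. Gene length entered these shares: 7 genes over 100 kb held 2693 of the member windows, of which 2.90% were low, against 25.3% in the shorter genes. In the flanks 25.6% were low and within the genes 11.4%.

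The longest unbroken run of low windows had a median of 4 kb in the members and 2 kb in all genes. It reached 5 kb or more in 47 of the 100 members, against 3.89% of all genes, and every member had at least 1 low window, whereas 14.7% of all genes had none. The measure was cut off at the 5-kb flank in 7 members.

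**Figure D2:**
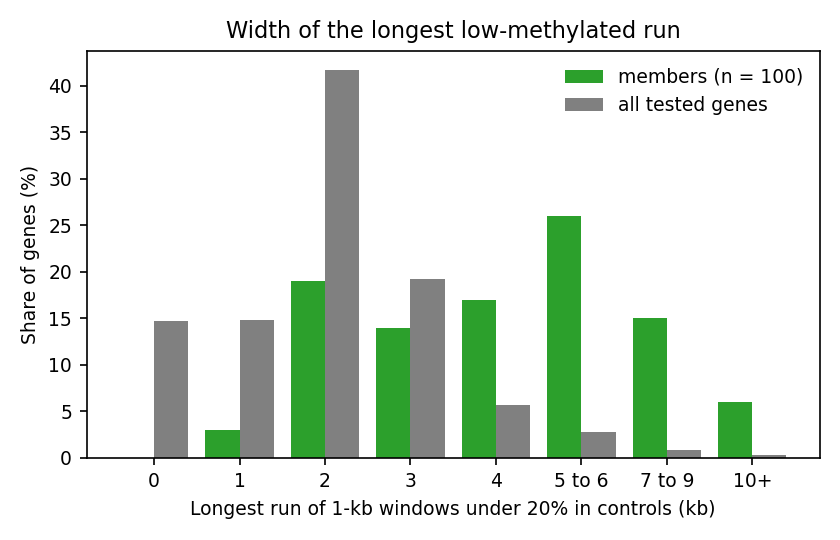
Share of genes (y axis, %) by the width of the longest run of consecutive 1-kb windows under 20% in the controls (x axis, kb), for the 100 members and for all genes tested. Runs of 5 to 6 kb, which pool 2 widths, make up 26% of the members and 2.78% of all genes, and 2 kb is the most common single width in both (19% and 41.7%).

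The longest runs were those of Foxd3 and Nkx6-1 at 13 kb, Pax6 at 12 kb, and Sox14 and Lhx5 at 11 kb. Foxd3 lay wholly inside its run. The run of Nkx6-1, a pancreas and motor neuron gene, averaged 3.28% and 3.44% in controls, against 1.89% and 2.09% in knockouts. That of Pax6 (chr2:105668896-105698410), the master gene of the eye, averaged 2.78% and 3.20% against 1.63% and 2.0%. In Sox14, a gene of interneurons, the run averaged 2.96% and 2.77% against 1.76% and 2.11%, and in Lhx5 3.72% and 3.48% against 2.17% and 2.15%. The knockouts were below the controls in these 4 runs, by less than 2 points, and no window of Foxd3 was called.

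The DNA beside the Pax6 and Lhx5 runs was less methylated in the knockouts. The window bordering the Pax6 run went from 79.6% to 22.8% on the side of the lower coordinate and from 47.4% to 18.9% on the other. Inside Pax6, low stretches alternated with intermediate windows whose knockout mean was below 20%, and its longest low run by that mean was 26 kb. In knockout 1 it was 26 kb and in knockout 2 13 kb. By the group means, the longest run was wider in the knockouts in 53 members, equal in 46 and narrower in 1. This count was not made over all genes. The limit of 20% is fixed, so a fall in bordering windows just above it widens a run by construction, in members and other genes alike. The median longest run went from 4 kb in the controls to 5 kb in the knockouts in the members. Over all genes it was 2 kb in both groups. At Lhx5 the window bordering the run went from 62.1% to 25.5% on the side of the lower coordinate and from 21.3% to 13.2%, which was not called, on the other, and its longest run was 12 kb in the knockouts.

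**Figure D3:**
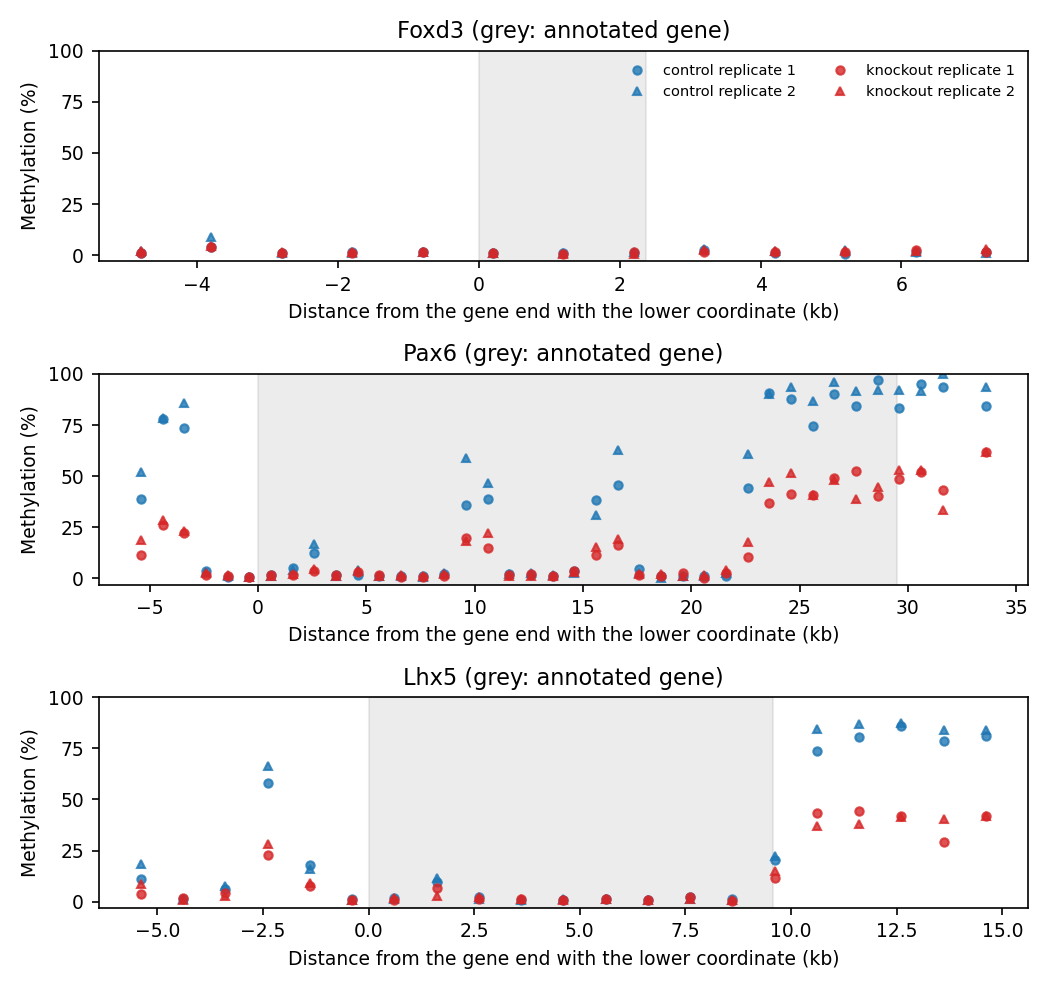
Methylation (y axis, %) of each measured 1-kb window across Foxd3, Pax6 and Lhx5 in each of the 4 samples, by distance from the gene end with the lower coordinate (x axis, kb), with the gene shaded. All Foxd3 windows are low in every sample, while the windows over 20% around and between the low stretches of Pax6 and Lhx5 are lower in both knockouts (red) than in both controls (blue).

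Member windows already under 20% in the controls numbered 732. Their means were 4.21% and 4.56% in controls, against 3.74% and 3.57% in knockouts, so the knockouts were slightly below. Both knockouts were above both controls in 17.2% of them and below in 31.8%, against 26.8% and 25.8% of all windows of that class. Of these members' windows 0 were called higher, while 2089 of 68925 such windows were in the genome. The 2 classes are unlike. The members' low windows averaged 4.38% in controls with a median of 36 CpGs, against 7.41% and 24 for all low windows. Member windows between 20% and 80% had 54.1% and 59.97% in controls, against 27.3% and 28.5% in knockouts, and 641 of 694 (92.4%) fell, against 87.3% of all windows of that class. Of the 3854 with 80% or more, 3851 (99.9%) fell, as did 99.9% of all such windows, from 87.0% and 92.1% to 46.4% and 47.2%.

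The member window with the greatest loss lay in Sox6 (chr7:115706001-115707000), at 89.1% and 94.3% in controls, against 21.0% and 24.2% in knockouts, a fall of 69.1 points. The next 4 were another Sox6 window, 2 windows of Foxp2, a gene of brain and lung, and 1 of Pax3, a gene of muscle and neural crest progenitors. Their differences lay between -67.2 and -64.4 points (limma adjusted p = 1.61e-05 for each). The 5 windows held 3 to 7 CpGs with values, so each rests on few sites, and they were picked as the extremes.

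Small gains were seen in a few low windows. Without the 10-point limit, 41 member windows (0.777%) passed as higher in limma, against 0.641% of all windows, with a median gain of 2.64 points and a largest of 9.08 points in Pax3. That Pax3 window (chr1:78132001-78133000) had 5.67% and 5.53% in controls, against 21.0% and 8.35% in knockouts, so knockout 1 alone stood well above. A Tbx5 window (chr5:119883001-119884000), in a gene of heart and forelimb, had 12.7% and 8.51% against 19.2% and 19.6%, with both knockouts above both controls. Leaving out knockout 2 made 6 member windows called higher, and leaving out any other sample 1 to 3.

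Gene starts were read from 1000 bp upstream to 500 bp downstream. Listed starts were found for 71 of the 100 members, 88 starts in all. Around them methylation was lower and the dip wider than around all starts: in the bin from the start to 500 bp downstream it went from 10.6% in the controls to 6.39% in the knockouts, and 4.5 to 5 kb upstream from 62.1% to 30.2%. For all starts the values were 25.4% to 13.9% and 79.6% to 42.4%.

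**Figure D4:**
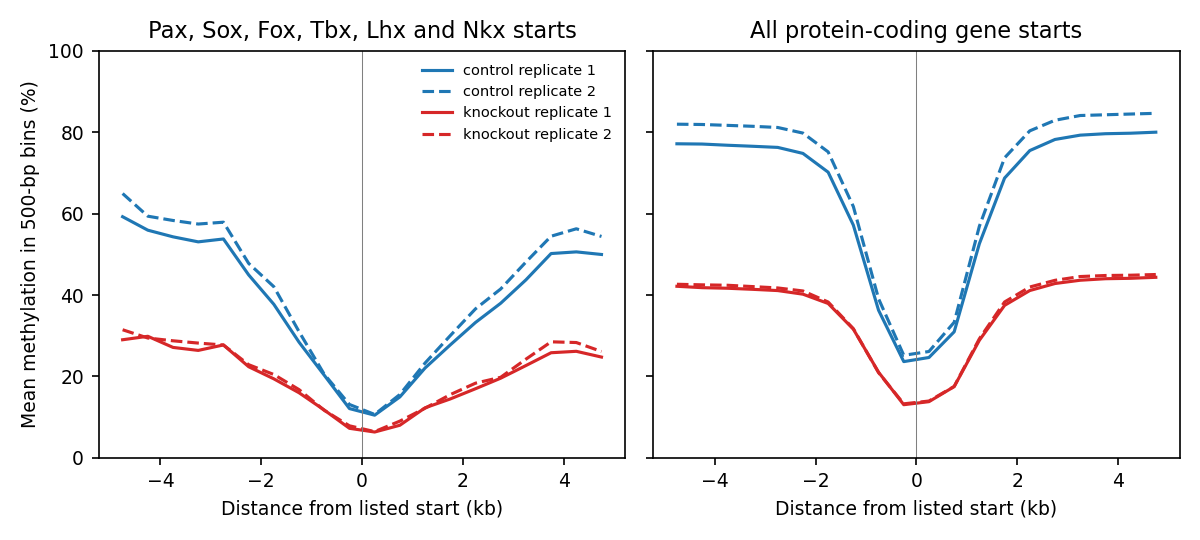
Mean methylation (y axis, %) in 500-bp bins by distance from the listed gene start (x axis, kb) in each of the 4 samples, for the members' starts and for all protein-coding starts. The members' dip is wider, with both knockouts (red) below both controls (blue) in the outer bins and all 4 samples near each other at the start.

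Of the 88 member starts 13 fell, in 10 genes, against 28.7% of the 18853 starts tested, and 0 rose, against 0.196%. At an unadjusted p under 0.05 in limma, 29 member starts differed in either direction, a count that was not made over all starts. Under 20% in the controls were 75 of the 88 (85.2%), against 69.5% of all starts. None of the 75 was called, but 69 of the 88 were under 5%, where a 10-point fall is not possible. The count of member starts that fell is limited by these levels. Of the 13 that fell, 8 lay 10 kb or more inside the gene, as did 12 of all 88. Some calls rested on single samples: without control 2 the starts of Tbx4, Pax8 and Lhx3 and the start inside Foxp1 were lost and that of Tbx6 was gained, and Lhx3 was also lost without knockout 1. With no sharing of the spread between starts, 0 of the 88 and 12 of all 18853 (0.0637%) were called lower. Samples were also centred on their medians (a shift of -0.28 on the log2 odds scale), without the 10-point limit. Relative to that shift 17 (19.3%) were lower and 11 (12.5%) higher, against 32.6% and 6.25% of all starts.

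The sequences of 4 starts are shown to compare CpG content, from 250 bases before to 50 after the start (RefSeq, GRCm38.p6), with each CG in capitals. Sox6, Tbx10 and Foxn1 were among the 5 genes with the largest losses, each gene taken at its start with the largest loss. Foxl2, whose start had the lowest control level, was chosen after its values were seen.
Sox6 (internal start, chr7:115846091-115846390, minus strand): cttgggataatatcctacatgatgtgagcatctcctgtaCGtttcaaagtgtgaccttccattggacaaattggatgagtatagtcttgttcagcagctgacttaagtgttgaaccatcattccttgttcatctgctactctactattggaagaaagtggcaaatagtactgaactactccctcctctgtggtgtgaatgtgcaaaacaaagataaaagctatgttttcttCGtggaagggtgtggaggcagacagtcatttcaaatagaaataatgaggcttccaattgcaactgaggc
Tbx10 (chr19:3992502-3992801, plus strand): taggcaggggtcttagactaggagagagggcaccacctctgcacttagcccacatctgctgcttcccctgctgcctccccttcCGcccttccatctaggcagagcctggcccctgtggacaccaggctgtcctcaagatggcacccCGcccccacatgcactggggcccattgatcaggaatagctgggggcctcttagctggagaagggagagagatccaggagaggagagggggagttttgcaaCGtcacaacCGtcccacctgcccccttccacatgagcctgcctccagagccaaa
Foxn1 (chr11:78386559-78386858, minus strand): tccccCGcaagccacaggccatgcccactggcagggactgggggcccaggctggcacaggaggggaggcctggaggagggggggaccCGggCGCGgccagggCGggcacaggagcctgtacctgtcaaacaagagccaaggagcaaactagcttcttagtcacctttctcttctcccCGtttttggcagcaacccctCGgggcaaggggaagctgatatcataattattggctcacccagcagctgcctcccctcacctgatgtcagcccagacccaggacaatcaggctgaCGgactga
Foxl2 (chr9:98955357-98955656, plus strand): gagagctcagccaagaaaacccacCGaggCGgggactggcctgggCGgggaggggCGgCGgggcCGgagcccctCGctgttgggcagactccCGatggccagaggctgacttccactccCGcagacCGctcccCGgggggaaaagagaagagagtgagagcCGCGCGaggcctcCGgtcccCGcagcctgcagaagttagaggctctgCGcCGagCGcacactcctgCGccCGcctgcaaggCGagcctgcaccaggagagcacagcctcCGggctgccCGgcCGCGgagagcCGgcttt
These hold 2, 4, 8 and 27 CG dinucleotides. The median was 5 in the 13 starts that fell, 21 in the 75 that were not called and 14 in all listed starts.

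The Sox6 start, 194.6 kb inside the gene, had 90.3% and 92.4% in controls, against 41.4% and 47.7% in knockouts. It fell by 46.8 points (adjusted p = 6.25e-05, limma), with 5 CpGs measured. The other 3 Sox6 starts that were called fell by 45.4, 42.8 and 42.5 points. An internal start of Foxn3, a broadly expressed repressor, was at 89.8% and 92.9% against 46.8% and 47.6%. The groups of both starts were far apart.

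Tbx10, a T-box gene with a start outside any low stretch, had 79.7% and 90.2% in controls, against 40.1% and 44.9% in knockouts there. Foxn1, the gene of the thymic epithelium, had 90.0% and 92.2% against 54.4% and 48.9%. The internal start of Sox5, a cartilage gene like Sox6, had 85.3% and 90.7% against 58.2% and 54.0%. Foxn3, Tbx10, Foxn1 and Sox5 fell by 44.1, 42.5, 39.5 and 31.9 points (adjusted p = 6.27e-05, 1.33e-04, 8.73e-05 and 6.21e-04, limma).

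The start of Foxl2, a gene of the ovarian follicle, had 0.625% and 0.768% in controls, against 0.983% and 0.730% in knockouts, which overlapped. Foxi1, a gene of ion-transporting cells in ear and kidney, had a start at 13.2% and 9.84% in controls, against 23.3% and 13.4% in knockouts. Both knockouts were above both controls, but knockout 1 stood apart and the adjusted p in limma was 0.0792. Without knockout 2 this start was called higher, by 11.8 points. The germline starts named above also had their higher mean in knockout 1.

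The share of control methylation kept in the knockouts was lower in the members than in most genes. It could be read in 98 members with a control level of 10% or more, where its median was 50.7%, against 54.5% over all genes, and 80 of the 98 lay below that median. Among the lowest shares were those of Foxf1, a gene of lung and gut mesenchyme, at 40.2%, and Nkx3-2, a gene of the vertebral column, at 41.0%. The highest were those of Foxm1, a cell division gene, at 59.9%, Nkx6-2, a gene of oligodendrocytes, at 59.2%, and Foxc1, a gene of eye and vessels, at 59.1%.

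The shares rest on levels that were apart in the samples. Foxf1 had 24.0% and 28.4% in controls, against 10.2% and 10.9% in knockouts, and Foxm1 72.4% and 75.6% against 44.6% and 44.1%. No knockout overlapped a control in these genes.

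Members with less methylation in the controls kept a smaller share. The median share was 47.2% for the 27 members at 10 to 40%, 49.4% for 24 at 40 to 60%, 51.8% for 32 at 60 to 80% and 53.2% for 15 at 80% or more. All genes in the same ranges had 52.8%, 54.9%, 54.4% and 54.5%. Spearman's rho between control level and share was 0.528 over the 98 members and -0.022 over 19196 genes. The share has the control level as its divisor and all points come from the same 4 samples, so these are descriptions.

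**Figure D5:**
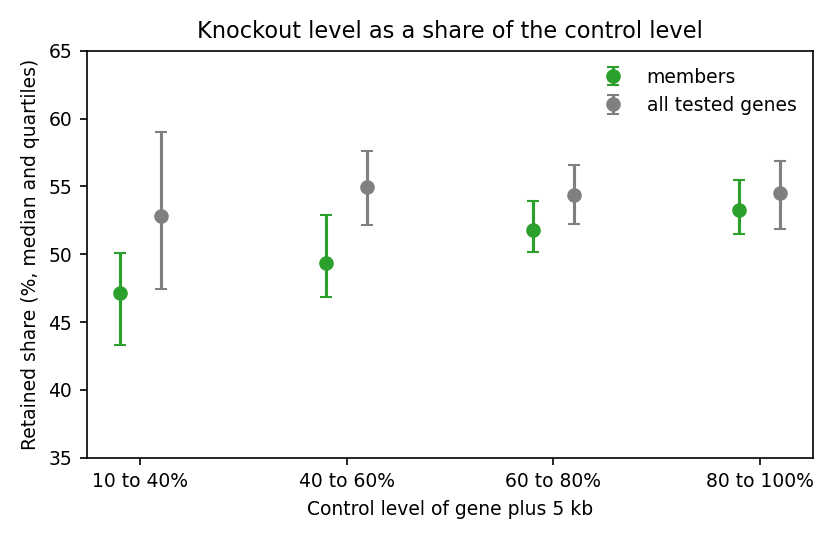
Knockout level as a share of the control level (y axis, %, median with quartiles as bars) by the control level of the gene with its flanks (x axis), for members and for all genes tested. The members' medians rise from 47.2% to 53.2% and lie under those of all genes in each of the 4 ranges, with overlapping quartiles.

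The lower share was also seen among windows of like level and CpG content. Windows were sorted by their level in 1 control and the share was computed against the other control. Sorted by control 1, member windows at 20 to 50% kept 48.9%, against 57.8% for windows of all protein-coding genes, and those at 80% or more kept 51.4% against 52.8%. Sorted by control 2, the values were 57.1% against 65.2% and 53.7% against 55.2%. In all 18 classes of level and CpG number the members' value was the lower, by 1.16 to 15.7 points, with as few as 37 member windows in a class. Windows and the 4 samples are used again under the other control, and a gene can give many windows. The 18 values are therefore not independent, and they have no test.

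Windows beside wide runs kept least. The first window beyond a run kept 49.8% where the members' run was 1 to 2 kb, 46.3% at 3 to 4 kb, 43.9% at 5 to 7 kb and 43.0% at 8 kb or more. Beside the runs of all protein-coding genes it kept 53.3%, 51.9%, 49.5% and 45.9%. With the 14 widest member runs, the 27 bordering windows had 45.9% and 51.4% in controls, against 18.9% and 22.9% in knockouts. Pairing each control with each knockout, that share lay between 36.7% and 49.99%, and for runs of 1 to 2 kb between 46.8% and 53.1%. In each of the 4 pairings, which share samples, it was lower beside the widest runs. These values have no test.

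Genes that act in the gonad or germ cells all fell: 11 of 11, against 99.5% of all genes. Of their 11 listed starts 0 were called, while 28.7% of all starts fell. The median control level of these 11 starts was 0.936%, and the highest was 2.13% in Sox30. From such levels a fall that meets the minimum difference is not possible, so the count cannot show whether these starts lost methylation. Over the gene with its flanks, Lhx9, needed to form the gonad, had 47.0% and 51.0% in controls, against 23.6% and 24.6% in knockouts. Sox30, a factor of spermatid differentiation, had 74.1% and 76.4% against 43.5% and 42.0%. Foxo1, which acts in spermatogonial stem cells, had 81.2% and 86.8% against 46.4% and 46.6%, and no group overlapped in these 3 genes.

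Lhx1, Foxl2, Foxc2 and Lhx2 had lower controls, between 28.2% and 43.6% on average. Lhx1, a gene of the kidney and genital ducts, had 29.8% and 34.4% against 12.7% and 14.1%. Foxc2, which marks stem cells among spermatogonia, had 38.4% and 44.5% against 16.5% and 20.1%. Falls in the list ran from 15 points in Foxl2 to 37.5 points in Foxo1, with Lhx8 and Foxo3, both oocyte genes, at 32.4 and 37.1 points, Sox8, a Sertoli gene, at 33.5 points and Foxj2 at 34.5 points. With any 1 of the 4 samples left out, none of these 11 calls was lost.

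The other role lists fell in most members too. All 9 broadly expressed genes, 7 muscle and skeleton genes, 7 heart and limb genes and 3 lymphoid genes fell, as did 9 of 10 neural and eye genes and 7 of 9 endoderm genes, against 99.5% of all genes. The median control level was 80.7% in the broadly expressed genes and 24.2% in the endoderm genes. The median share kept was 55.6% in the broadly expressed genes, 49.2% in the neural and eye genes and 48.3% in the muscle and skeleton genes. Differences between these lists were not tested.

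Other developmental genes with symbols outside the 6 families, such as the Dlx, Irx, Gata and Msx genes, also had low levels and wide low runs. The list includes Eomes, a T-box gene under another symbol. Of the 56 on the list 50 fell and 0 rose, while 99.5% of all genes fell. The median went from 33.5% to 16.6%, and the median share kept was 49.1%. Of 45 starts 2 fell, but their median control level was 1.27%, from which a 10-point fall is not possible. The longest low run reached 5 kb or more in 35 of the 56 genes. The values were not tested between this list and the 6 families, and none is called particular to either.

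Some members were neighbours, with 9 pairs less than 100 kb apart, and neighbours could differ. On chromosome 4, Foxd2, a kidney gene, and Foxe3, a lens gene, lay 15.5 kb apart with 22.0% and 59.8% in controls, against 11.8% and 28.1% in knockouts. Foxf1, Foxc2 and Foxl1 on chromosome 8 had 26.2%, 41.5% and 48.3% against 10.5%, 18.3% and 22.6%. Members counted here share 2 windows, so they are not independent of each other.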

How the data were processed

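The authors deposited a table of methylation in percent at each cytosine of a CpG, 1 column per sample, with a blank where a sample had no value. Per the labels, libraries were made by bisulfite sequencing with adaptors added after conversion (PBAT), and per the submitters' processing notes the build was mm10. An aligner or caller was not given in the sources used here. A minimum of 10 reads appears in the name of the table. Levels were averaged over cytosines with values in all 4 samples per window or start, then over the windows of a gene (5 or more). They were tested in limma 3.58.1 (R 4.3.3, trend and robust) as log2((m + 0.01)/(1 - m + 0.01)). The residual degrees of freedom were 2, against a median of 15.9 shared ones for windows and 11.9 for starts. Most of the spread is therefore shared between features. For genes the shared ones were infinite in 100% of cases, so gene p-values rest on the shared spread and not on the gene's own. Starts and strands came from a RefSeq promoter table, which lists none for 29 members.

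Members and lists were chosen with earlier results of these data known. Named genes were the highest and lowest of each family by control level, the 5 genes whose start had the largest loss, the 5 windows with the largest loss, the 5 longest runs, the gonad list and the extremes of the retained share; some genes that this rule names are not reported here. The correlation of deviations between samples of the same number was 0.028 for windows, 0.079 for genes and 0.086 for starts, over 2 pairs, and numbers were not taken as pairs. The code was tested on simulated data.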

Additional observations from a re-analysis of the deposited data

How the results depend on the processing

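Of 105 recomputed values, 81 stayed in place, 24 moved and 0 reversed. With each sample centred on its median and no 10-point limit, directions are relative to the median shift. So read, 26 member windows were lower and 1009 higher, against 0.588% and 12.6% of all windows. Of the member genes 11 were lower and 72 higher, against 32.1% and 40.1% of all genes. Of the member starts 11 were higher, against 6.25% of all starts. With no sharing of the spread between features, 2780 windows and 0 starts were lower, against 55.1% of all windows and 0.0637% of all starts. With no minimum difference, 41 windows (0.777%) were higher, against 0.641% of all windows. Without that limit, 22 starts (25%) were lower and 3 (3.41%) higher, against 38.5% and 2.46% of all starts. With 10 or more CpGs, 1965 of 2691 windows (73.0%) were lower, against 85.3% of all such windows. In that setting the median member gene difference was -18.3 points and 26.0% of member windows were under 20%. Averaging over cytosines gave 56 genes lower, against 94.6% of all genes, and a median member gene difference of -13.4 points. Without flanks, 11.4% of windows were under 20% and the median run was 3 kb, and with a limit of 10% the share was 11.9%. Starts read over 500 bp on each side gave 8 lower of 87 (9.20%), against 26.2% of all starts. Where fewer features or sites enter by construction the counts shrink, and otherwise the cause was not tested. Leaving out 1 sample gave 4421 to 4493 windows lower and 1 to 6 higher, 89 to 92 genes lower, and 10 to 13 starts lower and 0 to 1 higher. The replicate block gave 4504 windows, 91 genes and 13 starts lower, against 93.7% of all windows, 99.5% of all genes and 28.8% of all starts. It changed no other call count beyond 1.5 times. Blank sites and unknown depth limit windows with few CpGs.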
